A study of Homo sapiens with 2 samples.

Results

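NF-kappaB is a family of dimeric transcription factors that drives inflammatory and survival genes, and the mRNAs of its subunits and of the proteins that restrain it were followed here after knockdown of IFITM1. The genes were 4 subunits (NFKB1, NFKB2, RELA and RELB) and 6 inhibitors or regulators (NFKBIA, NFKBIE, NFKBIZ, NFKBIL1, TNFAIP3 and BIRC3). They were chosen by name, with earlier results of these data known. Every probe set annotated to exactly 1 of them was taken, which gave 15 probe sets for 9 of the 10 genes, out of 19775 genes with such a probe set. BIRC3 was not analysed here, because the probe annotation used pairs no probe set with it. The cells were HT-29, an established human colorectal adenocarcinoma line. One culture was transfected with siIFITM1, an siRNA against the interferon-induced membrane protein gene IFITM1, and the other with siLuc, an siRNA against firefly luciferase that served as the baseline. Total RNA was taken at 72 h from each culture and read on 1 array per siRNA, so replicate error is unknown for every value and no test was made. Both cultures were transfected, so a response of equal size in both is not visible in the comparison. A difference between the cultures in transfection or in response to the siRNA sequence cannot be told apart from an effect of the knockdown.

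In resting cells the subunits are held inactive in the cytoplasm by ankyrin-repeat inhibitors, the IkappaB proteins, and by the ankyrin-repeat ends of the NFKB1 and NFKB2 precursors. Signals from tumour necrosis factor, interleukin-1 or microbial sensors activate the IkappaB kinase, the inhibitor is degraded and the dimers enter the nucleus. Several of their first target genes encode their own inhibitors and subunits, among them NFKBIA, TNFAIP3 and NFKB2. The mRNA levels of these feedback genes are therefore used as a readout of the pathway. The arrays here read mRNA at 72 h only and hold no measure of pathway activity itself.

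Values are MAS5 signals, which are intensities on a linear scale, and every log2 ratio is siIFITM1 over siLuc. A probe set passed the filter if its mean log2 signal over both arrays reached the median of all non-control probe sets (57.4). A gene is called brighter if its brightest probe set reached the 75th percentile (393), and dimmer otherwise. The error of a ratio is given by how far probe sets of 1 gene disagreed in their log2 ratios (SD within genes), which was 0.193 for brighter and 0.496 for dimmer probe sets. It holds the disagreement between probes on these arrays and no variation between cultures. The arrays had the same trimmed mean signal, which scaling in MAS5 can set, so it is no check of the arrays. The log2 ratios of 18 hybridisation controls ran from -0.13 to 0.05. The knockdown was visible, with IFITM1 at 237 with siIFITM1 and 640 with siLuc (log2 ratio -1.43). IFITM2 (log2 ratio -1.29) and IFITM3 (-1.64) were also lower, and the probe sets of these 3 genes share probes with other transcripts. Of 12 markers of colon epithelium 10 passed the filter, KRT18 at 47953 with siIFITM1 and 49185 with siLuc, while CDX1 and CDX2 were below the filter on both arrays. Of the leukocyte and blood markers 5 of 7 measured passed, with a summed signal over all 7 of 21450 with siIFITM1 and 25118 with siLuc. Most of it was LYZ (20614 with siIFITM1 and 23964 with siLuc), and CORO1A was at 243 with siIFITM1 and 443 with siLuc. PTPRC, which defines leukocytes, was below the filter at all 5 probe sets. Of the fibroblast and endothelial markers 4 of 8 passed, with a summed signal over all 8 of 909 with siIFITM1 and 775 with siLuc. LUM was at 386 with siIFITM1 and 132 with siLuc (log2 ratio 1.54). The other 3 that passed were lower, COL1A1 (log2 ratio -0.49), DCN (-0.51) and PECAM1 (-0.24). COL3A1 was below the filter at all 5 probe sets. The part of these markers in the results below was not tested.

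The DNA around the gene starts was examined because several of these genes are known targets of their own pathway. RefSeq windows (GRCh38.p14) of 250 bases before to 50 bases after an annotated start were matched for 8 of the 10 genes, 7 of them measured. Each was searched on both strands for the degenerate NF-kappaB consensus, and overlapping matches were counted by their first base. The consensus was present for 5 of the 7 measured genes, NFKB1, NFKB2, NFKBIA, NFKBIZ and TNFAIP3, and absent from both windows of RELA and both of NFKBIL1. By window it was present in 7 of the 13 of these genes, and over the whole table in 5.91% of 35116 windows and for 7.09% of genes. The word GGGAATTTCC, on one strand or the other, was shared by NFKB1, NFKBIA and NFKBIZ and occurred in 0.145% of all windows. The 250 bases before the start are shown for NFKBIA and NFKB1, the main inhibitor and a subunit that carry this word. For the other 3 genes 30 bases around selected matches are shown, with NFKBIZ at its start 1. A match at start 2 of NFKBIZ and further matches at starts 2 and 3 of NFKB2 are not shown. All read 5′ to 3′ on the gene's own strand, and capitals mark the consensus.
NFKBIA (chr14:35404750-35404999, minus strand): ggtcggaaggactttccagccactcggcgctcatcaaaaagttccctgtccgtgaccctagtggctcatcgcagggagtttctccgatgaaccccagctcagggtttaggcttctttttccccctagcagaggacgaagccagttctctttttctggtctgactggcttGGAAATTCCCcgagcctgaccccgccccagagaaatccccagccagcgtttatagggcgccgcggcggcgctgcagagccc
NFKB1 (chr4:102501109-102501358, plus strand): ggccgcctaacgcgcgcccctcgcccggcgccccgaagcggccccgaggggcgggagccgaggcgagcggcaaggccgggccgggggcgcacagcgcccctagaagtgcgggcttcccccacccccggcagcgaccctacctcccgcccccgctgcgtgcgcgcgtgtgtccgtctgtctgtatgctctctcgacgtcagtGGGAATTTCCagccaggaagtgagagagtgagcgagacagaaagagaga
NFKBIZ (chr3:101827757-101827786, plus strand): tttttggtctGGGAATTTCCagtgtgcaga
TNFAIP3 (chr6:137867188-137867217, plus strand): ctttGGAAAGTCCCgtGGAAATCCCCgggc
NFKB2, start 2 (chr10:102394461-102394490, plus strand): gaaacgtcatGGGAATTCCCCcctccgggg
NFKB2, start 3 (chr10:102395674-102395703, plus strand): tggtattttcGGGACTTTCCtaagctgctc
In NFKBIA the match began 81 bases before the start and in NFKB1 49 bases before it. TNFAIP3 carried 2 matches side by side, and NFKB2 carried 5 match positions over 2 of its starts. A match is a description of these letters and not evidence of binding.

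**Figure D1:**
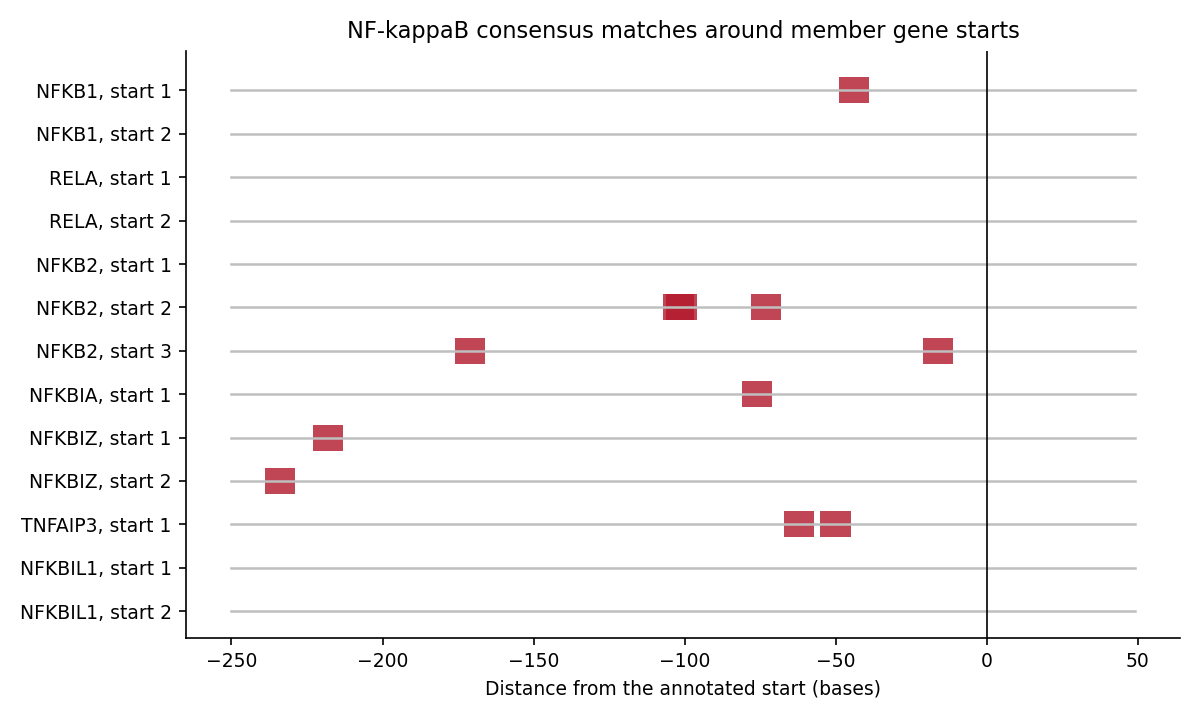
Positions of NF-kappaB consensus matches in the 13 RefSeq windows of the 7 measured genes that have one. The horizontal axis is distance from the annotated start in bases, each grey line is a window of 250 bases before to 50 after a start, and red blocks are matches on either strand. Matches lie in 7 of the 13 windows and none lies in those of RELA or NFKBIL1.

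Of the 9 measured genes, 8 differed by less than 1.5-fold between the arrays, with log2 ratios from -0.27 to 0.28, and NFKBIL1 alone was past 2-fold. All 9 passed the filter, 5 with a ratio above 0 (47.4% of all genes) and 4 below. Their median was 0.03, against -0.02 over the 12225 genes that passed. Within 1.5-fold were 88.9% of the members and 88.5% of all genes, of which 4.18% were at least 1.5-fold higher and 7.34% at least 1.5-fold lower, so the small differences do not set these genes apart. Those past 2-fold were 0 higher and 1 lower, where 1.01% of all genes were at least 2-fold higher and 2.01% at least 2-fold lower. The genes were listed with the value of NFKBIL1 already known, so its count carries no weight as support.

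**Figure D2:**
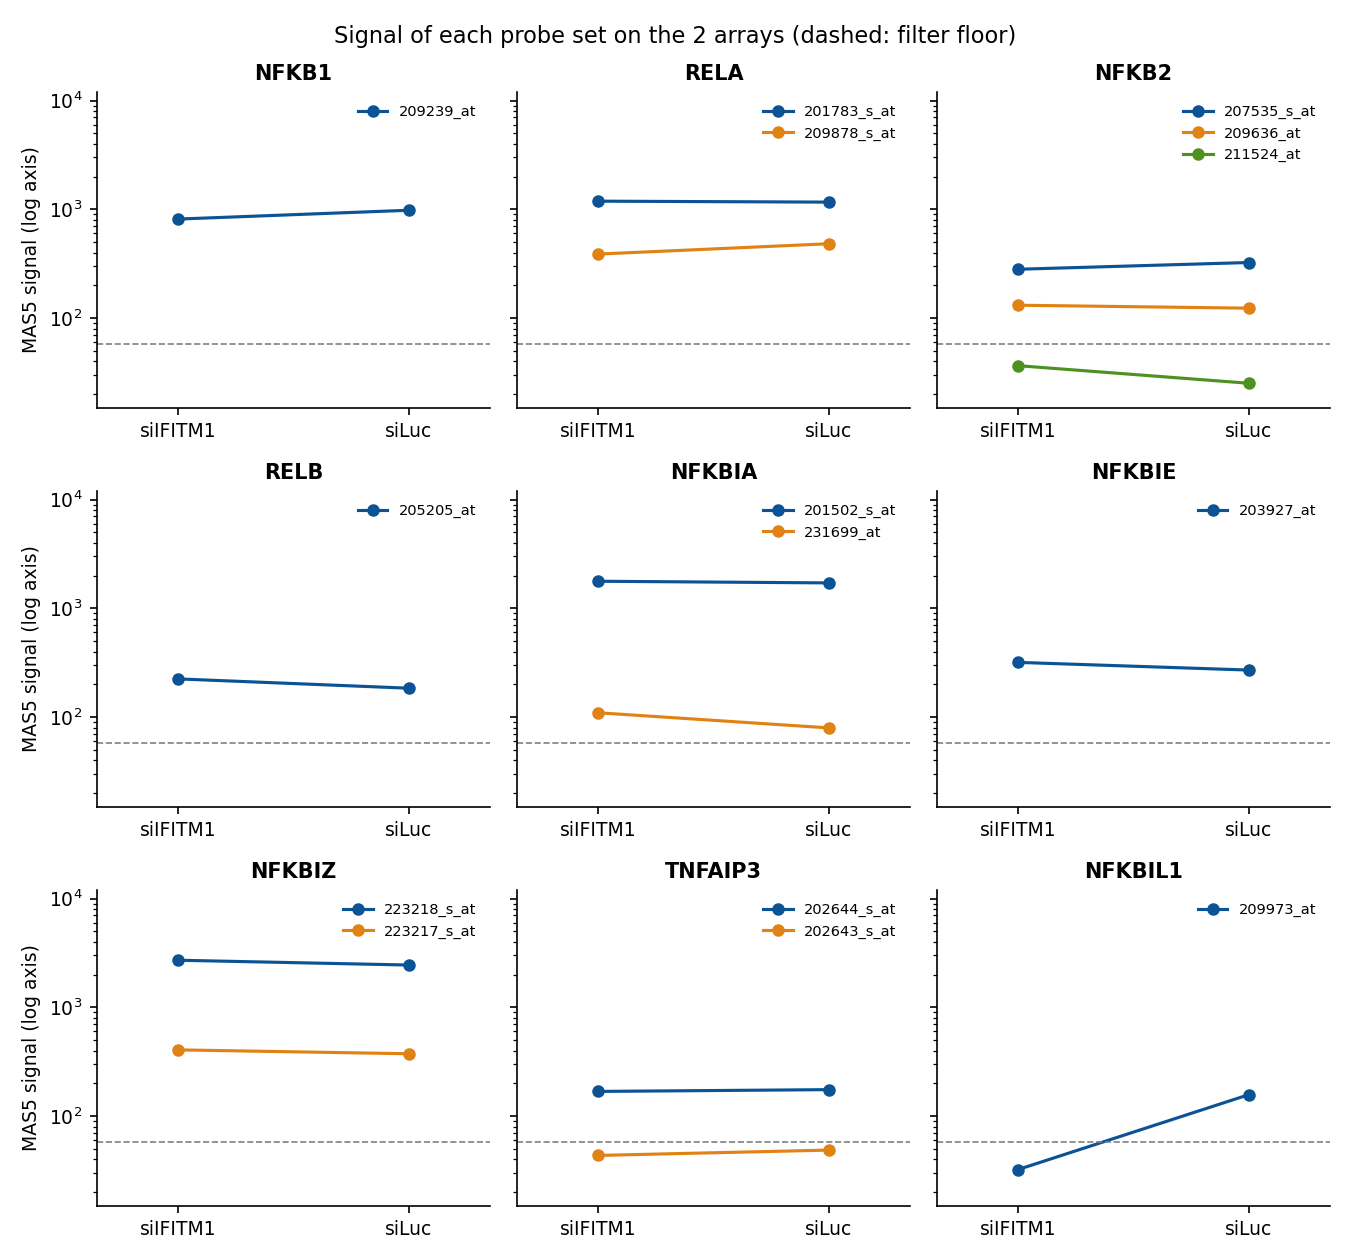
MAS5 signal (log axis) of all 15 probe sets of the 9 measured genes, with siIFITM1 left and siLuc right, 1 point per array and 1 line per probe set. The dashed line is the filter floor of 57.4. Lines are close to level except for NFKBIL1, which was at 32.2 with siIFITM1 and 157 with siLuc.

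Among the subunits, NFKB1 and RELA form the classical dimer. NFKB1, whose precursor is cut to the DNA-binding subunit of that dimer, had a signal of 814 with siIFITM1 and 981 with siLuc. Its log2 ratio of -0.27, on its single probe set, was the lowest among the brighter members and came to -1.40 when divided by the SD of its class. RELA, which carries the transactivating domain, was at 1189 with siIFITM1 and 1165 with siLuc at its brightest probe set, a log2 ratio of 0.03. Its other probe set read 388 with siIFITM1 and 483 with siLuc (log2 ratio -0.32). The RELA probe sets thus differed from each other by 0.35 on the log2 scale, more than the ratio of either, and gave no common direction.

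NFKB2 and RELB form the dimer of the non-canonical branch, which follows lymphotoxin and CD40 signals. NFKB2 was at 281 with siIFITM1 and 324 with siLuc (log2 ratio -0.21) at its brightest probe set. The next NFKB2 probe set was at 131 with siIFITM1 and 123 with siLuc (0.09), and the last was below the filter at 36.5 with siIFITM1 and 25.1 with siLuc. RELB had 225 with siIFITM1 and 184 with siLuc, a log2 ratio of 0.28. Both ratios lay inside the SD of 0.496 for dimmer probe sets, and the probe sets of NFKB2 were on opposite sides of 0. The subunits together had 2 ratios above 0 and 2 below, with a median of -0.09.

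The feedback inhibitors that answer NF-kappaB activation most directly were almost level. NFKBIA, which encodes IkappaB-alpha and is resynthesised soon after the pathway fires, had a signal of 1775 with siIFITM1 and 1714 with siLuc (log2 ratio 0.05). A dimmer NFKBIA probe set was at 109.6 with siIFITM1 and 79.5 with siLuc (0.46), a difference of 0.41 from the first and within the SD for its class. TNFAIP3, a ubiquitin-editing enzyme that shuts off the signal upstream of the kinase, was at 169 with siIFITM1 and 175 with siLuc (-0.05). Its other probe set was below the filter at 43.5 with siIFITM1 and 48.7 with siLuc. For both genes the brightest probe set differed between the arrays by far less than the SD of its class.

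NFKBIZ and NFKBIE were slightly higher with siIFITM1. NFKBIZ encodes IkappaB-zeta, an atypical nuclear family member that promotes transcription of a subset of targets. It was at 2712 with siIFITM1 and 2449 with siLuc (log2 ratio 0.15), and its second probe set at 406 with siIFITM1 and 374 with siLuc (0.12). These 2 probe sets differed by 0.03 and were the closest pair among the 4 members with more than 1 probe set past the filter. NFKBIE, which encodes the cytoplasmic inhibitor IkappaB-epsilon, was at 318 with siIFITM1 and 271 with siLuc (0.23). Each of these ratios lay inside the SD of its class.

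NFKBIL1 was the exception. It encodes an ankyrin-repeat protein named for its likeness to the inhibitors, from the MHC class III region, and its place in the pathway is less settled than that of the others. Its single probe set read 32.2 with siIFITM1 and 157 with siLuc, a log2 ratio of -2.29, or 20.5% of the siLuc signal. Divided by the SD between dimmer probe sets, the ratio was -4.62. The probe set passed the filter, and so counted as dimmer, only through its siLuc signal. That SD is therefore no measure of the error of this ratio. The siIFITM1 signal lay below the filter floor, where probe sets of the same gene differed by an SD of 1.66 on the log2 scale. With that signal raised to the floor the gene was 2.75-fold lower (log2 ratio -1.46). Among the 4432 dimmer genes 5.39% were at least 2-fold lower and 0.97% at least 3-fold lower, against 0.0898% at least 2-fold lower among the 7793 brighter genes. The nearest protein-coding genes on either side in the GRCh38.p14 table, ATP6V1G2 and LTA, were below the filter on both arrays and gave no usable ratio. No second probe set of NFKBIL1 was there to compare.

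**Figure D3:**
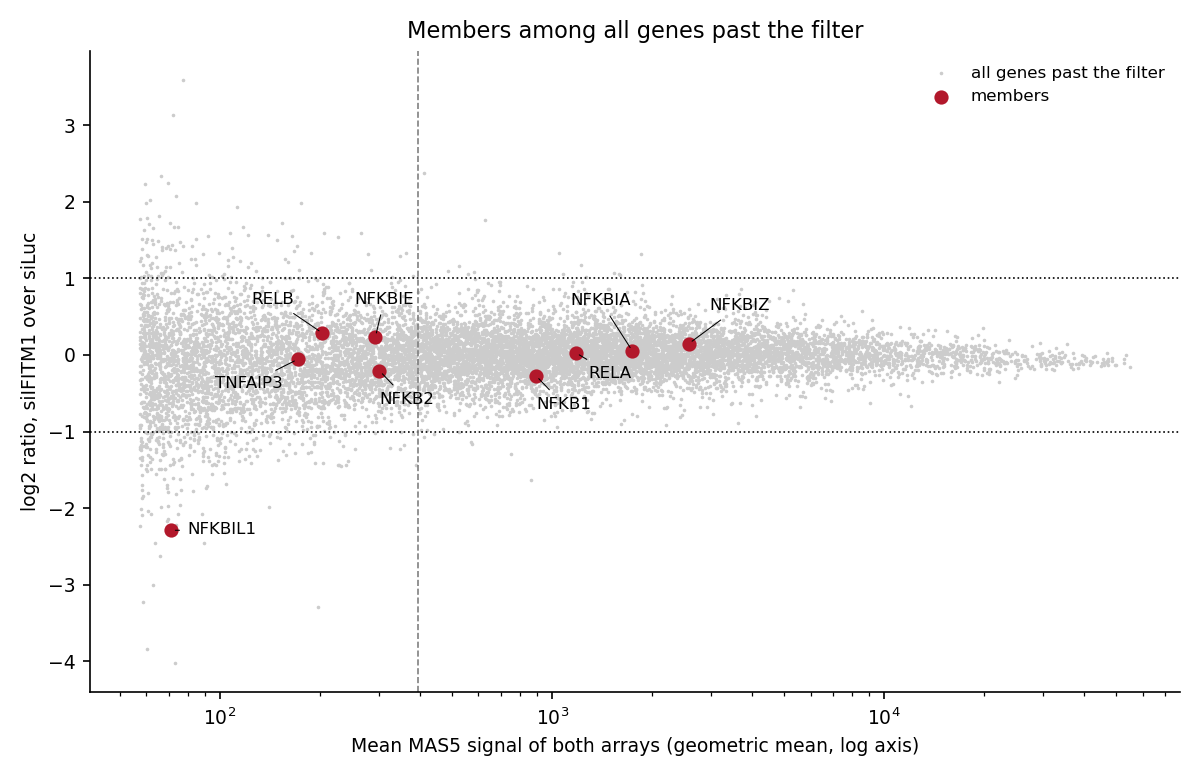
Log2 ratio (siIFITM1 over siLuc) against the geometric mean MAS5 signal of both arrays (log axis) for the 12225 genes past the filter (grey) and the 9 measured members (red). Dotted lines mark 2-fold and the dashed line the signal of 393 that parts dimmer from brighter genes. The other 8 members lie between -0.27 and 0.28, and NFKBIL1 is at -2.29, at low signal, where the grey points spread most widely and reach -4.02.

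The genes with the consensus near a start did not share a direction. NFKB1, NFKB2, NFKBIA, NFKBIZ and TNFAIP3 had log2 ratios from -0.27 to 0.15 with a median of -0.05. Among all genes that passed the filter and have a window, the 892 with a match had a median of -0.02 and 47.4% above 0, and the 9036 without a match had a median of -0.02 and 47.8% above 0. At least 2-fold higher were 1.23% of the genes with a match and 0.730% of those without, and at least 2-fold lower were 2.02% with a match and 1.77% without. Of the 28 genes of the NF-kappaB target list with a window, 12 had a match, 42.9% against 8.98% over all genes. Their median was 0.17 with 8 of 12 above 0 and 0% at least 2-fold higher. The 16 without a match had a median of 0.03 with 8 above 0 and 6.25% (1 gene) at least 2-fold higher. Among the other family regulators 3 of 5 with a match and 5 of 8 without were above 0.

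The other genes of the family and its regulators were described from a list of 16, of which 14 were measured and all 14 passed the filter. Ratios were above 0 for 9 and below 0 for 5, beside 47.4% above 0 over all genes and 50.5% over brighter genes, which 12 of the 14 were. None was past 2-fold, as for nearly all brighter genes (0.18% higher and 0.0898% lower), and the median was 0.09. NFKBIB, the remaining classical inhibitor (IkappaB-beta), was lower at all 3 probe sets. It read 452 with siIFITM1 and 549 with siLuc (log2 ratio -0.28), then 251 with siIFITM1 and 336 with siLuc (-0.42), then 177 with siIFITM1 and 335 with siLuc (-0.92). REL, the remaining subunit, had no settled direction, with 4 probe sets past the filter that ran from 0.23 at the brightest to -0.69 at the dimmest. NFKBID, another nuclear IkappaB protein, was at 334 with siIFITM1 and 348 with siLuc (-0.06). BIRC2, a ubiquitin ligase of the same family as BIRC3, was at 4882 with siIFITM1 and 4206 with siLuc (0.22). RNF11, a subunit of the TNFAIP3 complex, had a ratio of -0.35, and TNIP1, which binds TNFAIP3, had 0.21. BCL3 was not analysed here.

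Upstream ligands, receptors, adaptors and kinases were a list of 48 genes, of which 43 were measured and 35 passed. Of these 14 were above 0 and 21 below, with a median of -0.07, while the 21 brighter ones had 12 above 0 and a median of 0.05. Above 0 were 47.4% of all genes, 50.5% of brighter and 41.9% of dimmer genes. None was 2-fold higher and 1, RNF31, was 2-fold lower, beside 1.01% and 2.01% of all genes and 5.39% lower among dimmer genes. RNF31, the catalytic subunit of the linear ubiquitin ligase, was at 43.5 with siIFITM1 and 89.3 with siLuc (log2 ratio -1.04), and its siIFITM1 signal was below the filter floor. With that signal raised to the floor it was 1.56-fold lower (log2 ratio -0.64), short of the 2-fold line. MALT1, a scaffold and protease that links receptors to the kinase, was higher at all 3 probe sets. Its brightest was at 759 with siIFITM1 and 536 with siLuc (0.50), and the others had ratios of 0.44 and 0.31. The rule that named MALT1 required 1 sign of its probe sets past the filter, so their agreement is no support. CD40, a receptor of the non-canonical branch, was at 211 with siIFITM1 and 290 with siLuc (-0.46). TNFSF13B, a ligand of the same branch, was at 44.2 with siIFITM1 and 83.9 with siLuc (-0.92), again with 1 array below the floor. With that signal raised to the floor its log2 ratio was -0.55. The other TNFSF13B probe set, below the filter, was at 52.5 with siIFITM1 and 60.2 with siLuc (-0.20).

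The target list of 50 genes had 47 measured and 34 past the filter. It was split evenly, with 17 above 0 and 17 below and a median of 0.01. CXCL8, the neutrophil chemokine, was the 1 target at least 2-fold higher, and 0 were at least 2-fold lower, beside 1.01% and 2.01% over all genes. CXCL8 is a brighter gene, and 0.18% of brighter genes were at least 2-fold higher. CXCL8 was at 1551 with siIFITM1 and 746 with siLuc (log2 ratio 1.06), and its second probe set at 429 with siIFITM1 and 244 with siLuc (0.82). CXCL1, a related chemokine, was at 826 with siIFITM1 and 414 with siLuc, just under the 2-fold line. PLAU, the urokinase gene, was at 321 with siIFITM1 and 189 with siLuc (0.76), with 0.38 at its second probe set. The rule that named PLAU likewise required 1 sign of its probe sets past the filter. CFB, complement factor B, was lower, at 117 with siIFITM1 and 218 with siLuc (-0.90).

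**Figure D4:**
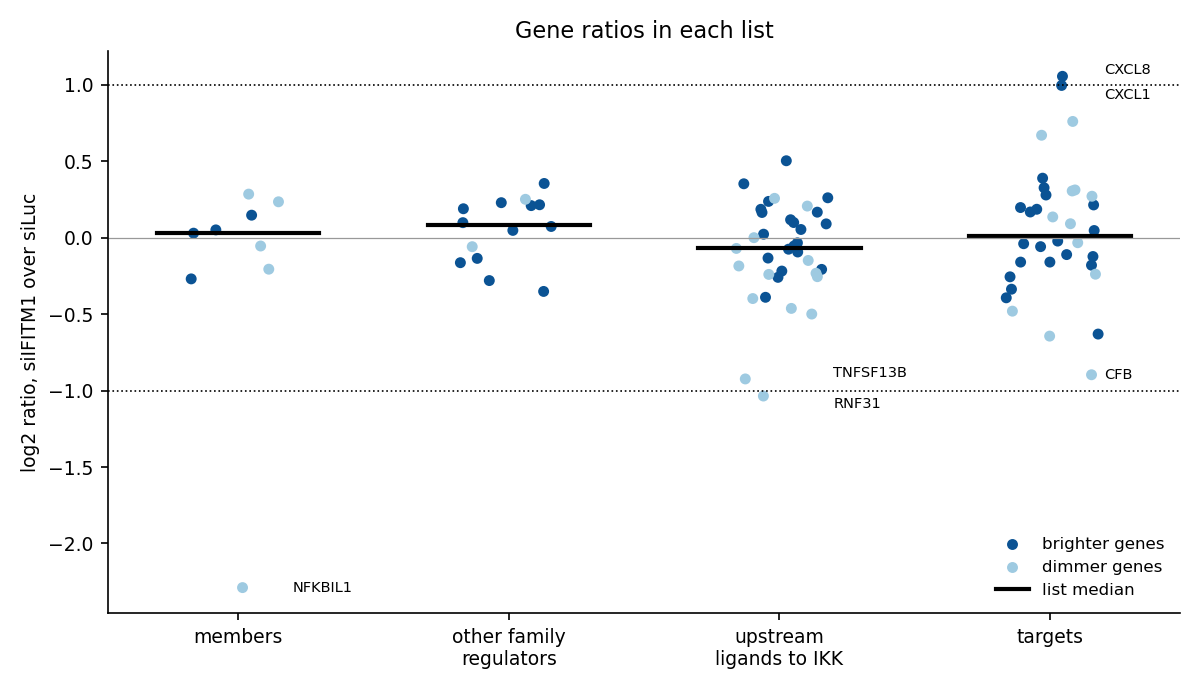
Log2 ratios (siIFITM1 over siLuc) of the genes past the filter in each list, 1 point per gene, dark blue for brighter and light blue for dimmer genes, with black bars at the list medians and dotted lines at 2-fold. The medians are 0.03 for the members, 0.09 for other family regulators, -0.07 for upstream genes and 0.01 for targets, and points past -0.8 or 0.8 are named.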

How the data were processed

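Each of the 2 samples, siIFITM1 and siLuc, was read on 1 single-colour Affymetrix array of biotin-labelled cRNA, per the labels. The deposited intensities are MAS5 signals per probe set, per the submitters' processing notes, on a linear scale with a mean of 500.1 on both arrays after 2% of probe sets were removed at each end. The MAS5 version and its scaling settings are not given in the sources used here, and detection calls were not used. The probe annotation named 1 gene for 41091 of 54613 probe sets, several for 1801 and none for 11721, and 99.9% of the first kind found their Entrez identifier in RefSeq GRCh38.p14, from which symbols were updated. Probe sets naming several genes were not used.

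Signals were taken to log2 with no further scaling. The probe set with the highest mean log2 signal stood for a gene. With 1 array per group there was no test, so comparisons are described by size and the number of arrays limits the precision. Named were all members, REL, NFKBIB, NFKBID, BIRC2, IFITM1 to IFITM3, and, from each list, genes past 2-fold and the 4 with the largest ratio whose probe sets past the filter had 1 sign. ATP6V1G2 and LTA were named as neighbours of NFKBIL1. The markers CDX1, CDX2, KRT18, LYZ, CORO1A, PTPRC, LUM, COL1A1, DCN, PECAM1 and COL3A1 were named after their values were seen. The members and lists were chosen with earlier results of these data known. The calculation was tested on simulated data with less noise than the dimmer probe sets showed. That test checks the arithmetic and not the error at low signal. Alternatives were other scalings (loess span 0.3), a pseudocount of 32, a floor, other filters, other probe set rules and lines of 1.5-fold and 3-fold. Python 3.11.15, numpy 2.4.6, pandas 2.3.3, statsmodels 0.14.6 and matplotlib 3.10.9 were used.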

Additional observations from a re-analysis of the deposited data

How the results depend on the processing

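The single member past 2-fold, NFKBIL1, was found under 10 of 11 alternatives, and the count was 0 when the filter was at the 75th percentile, which left 4 members. Its log2 ratio ranged from -2.29 to -1.46 over 8 alternatives, with -1.56 under the pseudocount of 32. It stayed at -2.29 with no filter, with probe sets averaged and without probe sets whose IDs end in _s_at or _x_at. NFKBIL1 has a single probe set without such an ending, so these alternatives could not change its ratio. The 1.5-fold line could not change its call either. No member was 2-fold higher under any of the 11. The members' median was 0.16 without probe sets whose IDs end in _s_at or _x_at, which left 6 genes, and lay between -0.05 and 0.16 over 9 alternatives. Under that omission NFKBIA rested on its dimmer probe set (0.46), and averaging its probe sets gave 0.26. The upstream median was 0.0535 with the filter at the 75th percentile, -0.00458 with probe sets averaged and 0.0228 without the _s_at and _x_at probe sets. Medians of the other family regulators (0.01 to 0.18) and of the targets (-0.03 to 0.05) moved by less than 0.367, the SD between probe sets of a gene over all probe sets past the filter, divided by the root of the number of genes. For the regulators, mostly brighter genes, this is a wide allowance. TNFAIP3, RELA and NFKB2 changed sign under some alternatives, with ranges of -0.05 to 0.00487, -0.14 to 0.06 and -0.21 to 0.09. Scaling moved the median of all genes between -0.02 and 0.02. No paired analysis was possible because each group has 1 array. Low signal limits NFKBIL1, RNF31 and TNFSF13B and the dimmer probe sets of RBCK1 and IKBKB, each with 1 array below the filter floor.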

Other observations

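Of the upstream and target genes, 3 had a further probe set past the filter and past 2-fold that did not stand for the gene, all of them dimmer and lower. Of all probe sets past the filter, 2.06% were at least 2-fold lower and 1.34% at least 2-fold higher. Lower was also the commoner direction among dimmer genes, with 5.39% at least 2-fold lower and 2.48% at least 2-fold higher. Probe sets below the filter, which passed 2-fold in both directions, are not counted. RBCK1, a partner of RNF31 in the linear ubiquitin ligase, read 43.1 with siIFITM1 and 153.6 with siLuc there (log2 ratio -1.83). Its siIFITM1 signal there was below the filter floor, and raised to it the probe set was 2.68-fold lower. The brightest RBCK1 probe set was at -0.13. A further one in the brighter class read 676 with siIFITM1 and 980 with siLuc (-0.54). IKBKB, a catalytic subunit of the IkappaB kinase, read 49.7 with siIFITM1 and 125 with siLuc (-1.33), with its brightest probe set at -0.19. This IKBKB probe set was below the floor with siIFITM1, and raised to it was 2.18-fold lower. CFLAR, an inhibitor of death receptor signalling, read 171 with siIFITM1 and 355 with siLuc (-1.05), with its brightest probe set at 0.20. Its other dimmer probe sets past the filter ran from -0.80 to 0.29, most of them below 0. These 3 genes were chosen after their values were seen.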
